A study of Rattus norvegicus with 16 samples.

Results

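The genes described here code for potassium channel subunits, and their levels were compared between 2 adrenal lesions of mutant rats and the adrenal medulla of wild-type rats. A probe set belonged to the group when the platform annotation gave it a single symbol that begins with Kcn, followed by letters and a number. That rule found 126 probe sets of 75 genes, among 31042 probe sets and 14217 genes with a single symbol. The brightest probe set of a gene, by its mean over the 16 arrays, stands for the gene, and 44 of the 75 genes had only 1.

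Total RNA was measured on 16 Affymetrix arrays. The mutant rats are labelled as p27Kip1 (Cdknb1) mutant, without the zygosity, and all rats shared a mixed Sprague–Dawley white eye/Wistar–Kyoto background. Pheochromocytoma, a tumour of the catecholamine-secreting chromaffin cells, was measured on 4 arrays, from 3 mutant rats of 8 months labelled female and 1 of 9 months labelled male. Older wild-type medulla was measured as 2 pools, one labelled as 2 females of 10 months and one as 2 males of 12 and 17 months. Medullary hyperplasia was measured on 8 arrays from mutant rats of 2 months, 4 labelled female and 4 labelled male. Young wild-type medulla was measured as 2 pools of rats of 2 months, one labelled as 2 males and one as 3 females. The older pools were therefore not of the same age as the tumours. A pool evens out differences between its animals, and each wild-type group has only 2 pools.

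Potassium channels let potassium leave the cell, which holds the membrane potential negative and ends each action potential. In chromaffin cells leak channels set the resting potential, and voltage-gated and calcium-activated channels shape the action potentials that drive catecholamine release. Pore-forming subunits assemble with auxiliary subunits that change their gating or their transport to the membrane.

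Values are log2 values, and differences are log2 differences ± standard error from 1 limma fit over all 16 arrays. P-values were adjusted by Benjamini-Hochberg over the 31042 probe sets, and a gene passed the test at an adjusted p under 0.05. Levels of different genes are not compared as amounts, because each probe set responds on its own scale.

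Some facts of the whole series touch the results below. The brighter of 2 Cdkn1b probe sets averaged 11.53 in pheochromocytoma, against 10.59 in older wild type, and 11.70 in hyperplasia, against 10.96 in young wild type, and it passed in both. The dimmer one averaged 4.14 in pheochromocytoma and 4.14 in older wild type. It averaged 6.09 in hyperplasia, against 6.90 in young wild type, a difference of -0.81 that did not pass (limma adjusted p = 0.0676). No source used here places these probe sets relative to the mutation, so they do not check the labels. Xist, which female cells transcribe from their silenced X chromosome, went against the labelled sex on 6 arrays, of which 4 were hyperplasia and 2 were the young pools, so labelled sex was not used in the fit. The mean of 12 adrenal cortex markers was 9.92 to 11.25 in pheochromocytoma, against 11.67 to 12.10 in older wild type. Of the 12, 10 were lower in the tumours, where 7.1% of all genes were. In hyperplasia that mean was 10.00 to 10.88, against 11.26 to 11.45 in young wild type. Of the 12, 3 were lower in hyperplasia, where 3.47% of all genes were. The mean of 12 chromaffin cell markers was 11.95 to 12.25 in pheochromocytoma, against 11.42 to 11.90 in older wild type. In hyperplasia it was 12.24 to 12.43, against 12.15 to 12.30 in the young pools. In such bulk samples, fewer cells of a type and less RNA per cell cannot be told apart.

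Levels of the potassium channel genes ran from below the arrays' first quartiles to above the upper quartile of all genes. Kcnma1, the pore of the large-conductance calcium-activated channel, had the highest mean over the 16 arrays, at 10.91. It was followed by the mechanically gated leak channel Kcnk2 at 10.59, the acid-sensitive leak channel Kcnk3 at 9.35 and the auxiliary subunit Kcnab1 at 9.29. These 4 were the members above the upper quartile of all genes. Next came Kcnc4 and Kcnj11, both at 8.69, Kcng2 at 8.66 and Kcnip1 at 8.61. At the other end, 16 genes lay below the array's first quartile of 4.71 to 4.93 on every array, so signal above background was not shown for them. They were Kcna2, Kcna3, Kcnc1, Kcne1, Kcnh5, Kcnip4, Kcnj1, Kcnj2, Kcnj10, Kcnj16, Kcnk1, Kcnk10, Kcnk15, Kcnmb1, Kcns2 and Kcnv1.

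**Figure D1:**
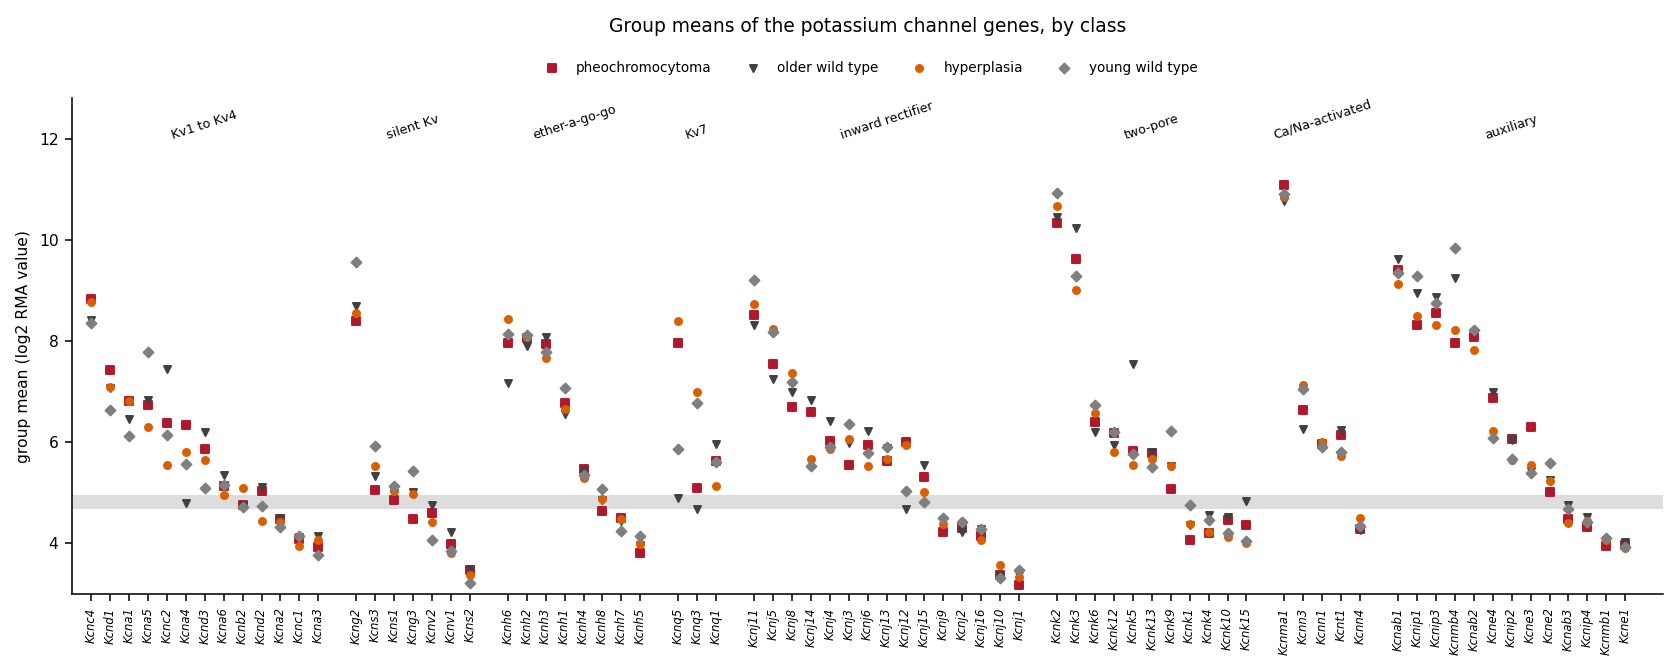
Group means (log2 RMA value, vertical axis) of the 75 potassium channel genes by class, with a symbol for each of pheochromocytoma, older wild type, hyperplasia and young wild type; the grey band runs over the arrays' first quartiles, 4.71 to 4.93. Kcnma1 and Kcnk2 are highest in all 4 groups, and Kcnq5, Kcnmb4, Kcnk5, Kcna4 and Kcnj12 show a lesion mean well apart from its wild-type mean in at least 1 comparison.

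In pheochromocytoma against older wild type, 7 of the 75 genes passed the test, which is 9.33%, against 16.8% of all 14217 genes. Kcnq5, Kcna4, Kcnj12 and Kcnh6 were higher in the tumours, 4 genes where 9.66% of all genes were, and Kcnk5, Kcnmb4 and Kcnk15 were lower, 3 genes where 7.1% of all genes were. In hyperplasia against young wild type, 8 of the 75 passed, or 10.7%, against 8.89% of all genes. Kcnq5, Kcnj12 and Kcnd1 were higher in hyperplasia, 3 genes where 5.42% of all genes were, while Kcnmb4, Kcna5, Kcng2, Kcnk9 and Kcnk1 were lower, 5 genes where 3.47% of all genes were. The median difference of the members was -0.13 in pheochromocytoma, where that of all genes was 0.00, and -0.08 in hyperplasia, where that of all genes was -0.01. Before adjustment, 18 members in pheochromocytoma and 21 in hyperplasia had a p under 0.05, against 33.2% and 25.8% of all genes. The lesion arrays and the wild-type pools did not overlap for 27 members in pheochromocytoma, or 36%, against 42.3% of all genes, and for 17 in hyperplasia, or 22.7%, against 23.6%.

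The hyperplasia count changed with the arrays used, and the share of all genes that passed with those arrays is not given here. Without the 4 hyperplasia arrays whose Xist goes against the label it was 3, namely Kcnq5 at 2.20, Kcnmb4 at -1.49 and Kcna5 at -1.54. Kcnj12 was then 0.68 and did not pass (limma adjusted p = 0.127). Kcnd1, Kcng2, Kcnk9 and Kcnk1 did not pass either, at 0.46, -0.91, -0.71 and -0.41. With all arrays these 4 differences were 0.44, -1.02, -0.69 and -0.38, so their sizes moved little. The count was 5 without the sixth hyperplasia array, and it also fell without either young pool.

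The 2 comparisons share no arrays, but the common fit gave them the same estimate of spread for each probe set. In both, 3 genes passed with the same sign. Kcnq5 and Kcnj12 were higher and Kcnmb4 was lower. These 3 are 42.9% of the members called in pheochromocytoma and 37.5% of those called in hyperplasia. Among all genes, the 705 called in both with 1 sign and the 3 with opposite signs make up 29.7% and 56.0%. Over the 75 members the differences had a Pearson correlation of 0.72, or 0.55 without Kcnq5, and over all genes 0.69. Their signs agreed for 54 of the 75, or 72%, against 71.4% of all genes.

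**Figure D2:**
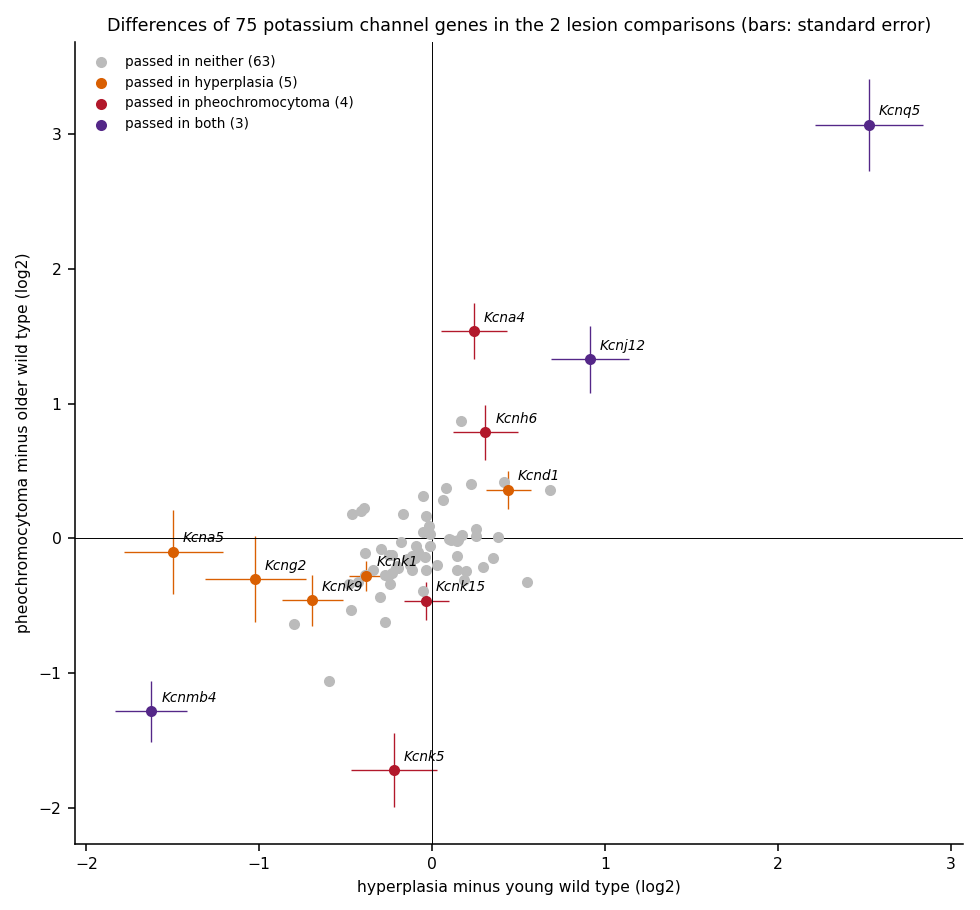
Log2 difference of each of the 75 potassium channel genes in hyperplasia against young wild type (horizontal axis) and in pheochromocytoma against older wild type (vertical axis), coloured by the test passed; bars are standard errors. Kcnq5, with its brightest probe set, stands apart at 2.53 and 3.07, and Kcnmb4 lies at -1.62 and -1.28.

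With each gene's brightest probe set, Kcnq5 had the largest difference of any member in both lesions, an order that did not hold with the mean of a gene's probe sets. It codes for a subunit of the M-type channels, slowly opening voltage-gated channels that muscarinic receptors close and that hold back repetitive firing. In pheochromocytoma its levels were 7.15, 8.19, 8.00 and 8.54, against 4.52 and 5.28 in the older pools. Every tumour lay above both pools, and the difference was 3.07 ± 0.34 (limma adjusted p = 0.000119). No fold is given because the first older pool lay below its array's first quartile of 4.93, where signal above background was not shown. In hyperplasia the 8 arrays ran from 7.85 through a median of 8.36 to 8.81, against 5.70 and 6.03 in the young pools. The groups did not overlap, and the difference was 2.53 ± 0.31, or 5.77-fold (limma adjusted p = 0.00025).

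These values rest on the brightest Kcnq5 probe set alone, which is the brightest of the 3 only through the lesion arrays. It averaged 7.97 in pheochromocytoma, against 4.90 in older wild type, and 8.39 in hyperplasia, against 5.86 in young wild type. The other 2 probe sets annotated to Kcnq5 averaged 6.28 and 5.97 over the 16 arrays, and in both wild-type groups their means were above that of the one used. They differed by -0.08 and -0.01 in pheochromocytoma and by -0.13 and -0.02 in hyperplasia, and neither passed in either comparison. With the mean of the 3 probe sets the difference was 0.99 in pheochromocytoma and 0.79 in hyperplasia, and both still passed. In pheochromocytoma that is smaller in size than the differences of Kcnk5 at -1.72, Kcna4 at 1.54, Kcnj12 at 1.33 and Kcnmb4 at -1.28. In hyperplasia it is smaller than those of Kcnmb4 at -1.62, Kcna5 at -1.50 and Kcnj12 at 0.91. No source used here says which exons each probe set reads.

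**Figure D3:**
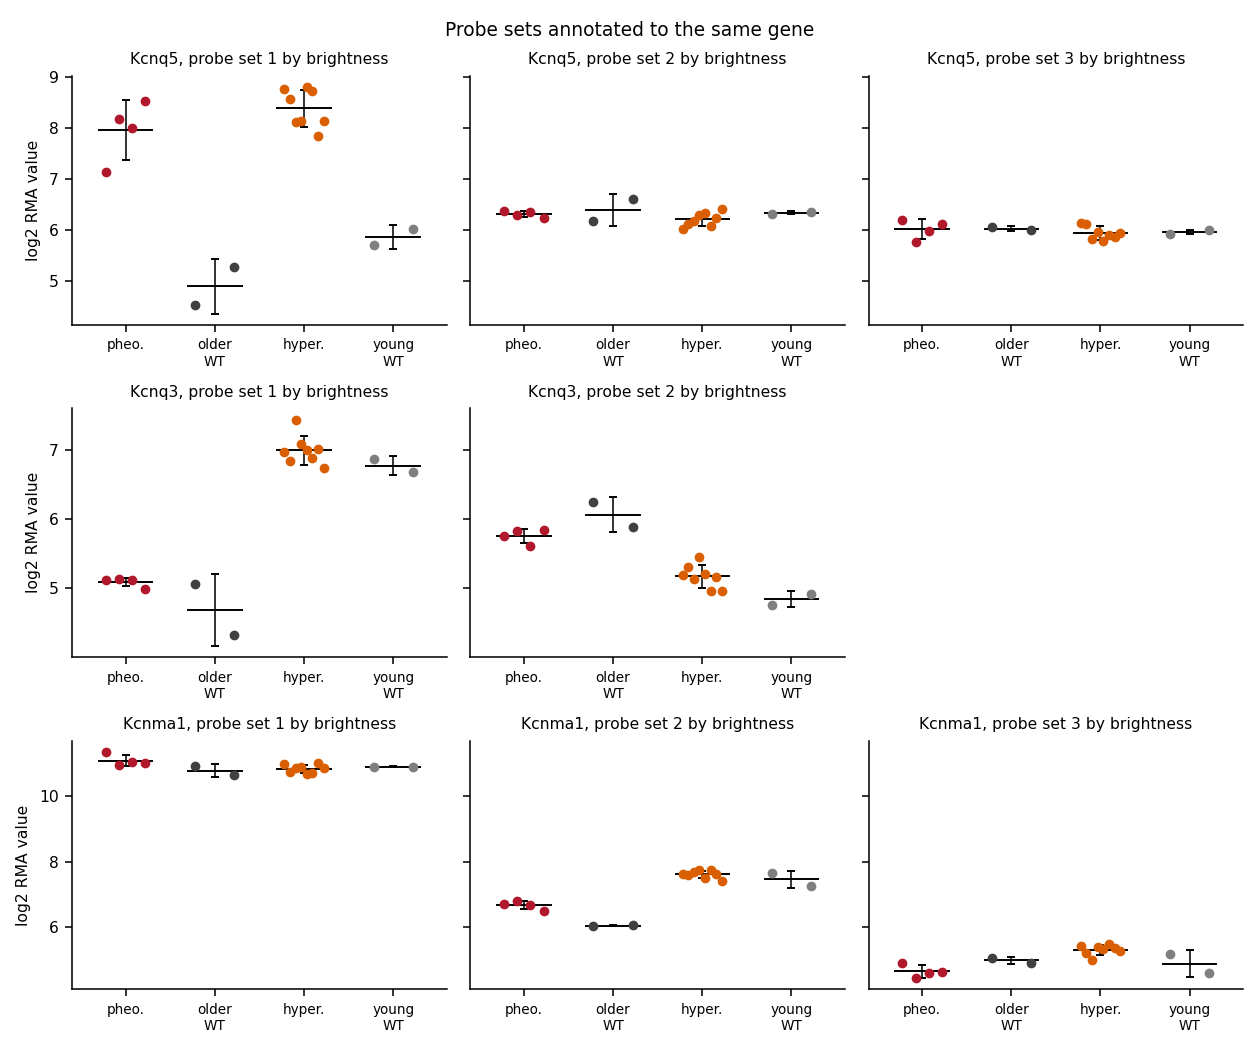
Log2 RMA values by array for all probe sets annotated to Kcnq5, Kcnq3 and Kcnma1, a row per gene on a shared axis, with pheochromocytoma, older wild type, hyperplasia and young wild type from left to right; lines are means and bars are SD. The brightest Kcnq5 probe set separates both lesions from wild type while the other 2 stay near 6, and the Kcnq3 probe sets run in opposite directions between the older and the younger groups.

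The promoters of Kcnq5, higher in both lesions, and Kcnmb4, lower in both, are shown from 250 bases before to 50 bases after the gene start. They come from RefSeq, build GRCr8, at chr9:31891232-31891531 and chr7:54005052-54005351, both on the minus strand and written 5′ to 3′. Capitals mark GGGCGG, a GC box, on either strand.
Kcnq5: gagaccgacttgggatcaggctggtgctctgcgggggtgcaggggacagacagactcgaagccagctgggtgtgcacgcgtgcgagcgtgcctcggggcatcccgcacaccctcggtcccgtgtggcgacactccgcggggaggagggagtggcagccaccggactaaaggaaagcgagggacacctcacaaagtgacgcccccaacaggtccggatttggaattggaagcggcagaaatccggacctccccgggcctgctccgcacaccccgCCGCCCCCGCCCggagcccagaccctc
Kcnmb4: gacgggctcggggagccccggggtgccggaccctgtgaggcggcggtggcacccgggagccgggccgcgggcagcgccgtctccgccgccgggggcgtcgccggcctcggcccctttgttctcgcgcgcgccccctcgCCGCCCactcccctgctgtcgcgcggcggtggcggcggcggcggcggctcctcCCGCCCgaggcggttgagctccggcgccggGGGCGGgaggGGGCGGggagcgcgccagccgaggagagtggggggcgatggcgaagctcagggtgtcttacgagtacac

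The Kcnq5 promoter held 2 GC boxes and 26 CpG dinucleotides, with 68.3% G and C. The Kcnmb4 promoter held 4 GC boxes and 48 CpG dinucleotides, with 80.7% G and C, above 99.2% of all 33469 promoters in the table. Promoters were found for 52 of the 75 members. The shares of all promoters below are over all 33469, not limited to genes on the arrays or to protein-coding genes. The members were thus not set against like genes. GGGCGG was present in 31 of the 52, or 59.6%, against 33.1% of all promoters. TATAAA, the letters of a TATA box, was present in 1 of the 52, or 1.92%, against 14.2% of all promoters. CANNTG, which basic helix-loop-helix factors can bind, was present in 35, or 67.3%, against 72.1%. TGACGTCA, the full cyclic AMP response element, was in none of the 52, against 1.83% of all promoters. All motifs were searched on both strands, none contains another, and a match is only a match of letters.

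Kcnq3 and Kcnq1, genes of the same family, did not pass in either lesion. Kcnq3, a subunit of M-type channels, differed by 0.40 in pheochromocytoma and 0.22 in hyperplasia. Kcnq1, known from heart and epithelia, differed by -0.34 and -0.48.

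Among the other genes of the array, those whose levels ran most like Kcnq5 over the 16 arrays were L1cam, with a Pearson correlation of 0.97, and Pcbp3 and Tbx4, both at 0.96. The 16 points share lesion and wild-type groups, so these correlations describe the same split of the arrays.

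Kcnmb4 codes for a neuronal auxiliary subunit that slows the large-conductance calcium-activated channel and lowers its sensitivity to calcium at low concentrations. It was lower in both lesions. The tumours had 8.34, 7.96, 8.03 and 7.53, against 9.49 and 9.00 in the older pools. Every tumour lay below both pools, with a difference of -1.28 ± 0.23, or 2.43-fold lower (limma adjusted p = 0.0022). Hyperplasia ran from 7.95 through a median of 8.17 to 8.82, against 9.86 and 9.81 in the young pools. Again the groups did not overlap, and the difference was -1.62 ± 0.21, or 3.08-fold lower (limma adjusted p = 0.000367). The gene had a single probe set.

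Kcnma1, its pore-forming partner, did not pass with the probe set used here. It was 11.36, 10.96, 11.05 and 11.01 in the tumours, against 10.92 and 10.64 in the older pools, and all 4 tumours lay above both pools by a narrow margin. The difference of 0.32 did not pass (limma adjusted p = 0.117), nor did that of -0.05 in hyperplasia (limma adjusted p = 0.845). A second, dimmer Kcnma1 probe set was higher in pheochromocytoma by 0.62 (limma adjusted p = 0.0044). Kcnmb1, the smooth muscle counterpart of Kcnmb4, lay below the first quartile on every array, and Kcnmb2 was not analysed here. The small-conductance channels also did not pass: Kcnn3 differed by 0.38 in pheochromocytoma and 0.08 in hyperplasia, Kcnn1 by 0.00 and 0.10, and the intermediate-conductance channel Kcnn4 by 0.03 and 0.17.

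Kcnj12, a strong inward rectifier that stabilizes the resting potential, was the second gene higher in both lesions. The tumours had 5.58, 6.24, 6.31 and 5.92, against 4.61 and 4.76 in the older pools. The difference was 1.33 ± 0.25 (limma adjusted p = 0.00294), with every tumour above both pools. Both older pools lay below their arrays' first quartiles, so no fold is given. Hyperplasia ran from 5.44 through 5.97 to 6.39, against 4.86 and 5.22 in the young pools, again without overlap. That difference was 0.91 ± 0.23, or 1.88-fold (limma adjusted p = 0.0221). The hyperplasia call rested on both young pools: without the first the Kcnj12 difference was 0.73 (adjusted p = 0.221) and without the second 1.09 (adjusted p = 0.0887). It was also lost with the adrenal cortex mean as a covariate, at 0.71 (adjusted p = 0.302), and with the replicate number as a block.

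Kcnj12 was the only one of 15 inward rectifiers to pass in either lesion. Of all genes, 16.8% passed in pheochromocytoma and 8.89% in hyperplasia. The channels gated by ATP and by G proteins did not pass. Kcnj11, the pore of the ATP-sensitive channel of neuroendocrine cells, differed by 0.18 in pheochromocytoma and -0.46 in hyperplasia. Its vascular relative Kcnj8 differed by -0.31 and 0.18. Kcnj5, a channel opened by G proteins and also known from the adrenal cortex, differed by 0.28 and 0.07, and its partner Kcnj3 by -0.44 (limma adjusted p = 0.0692) and -0.30.

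**Figure D4:**
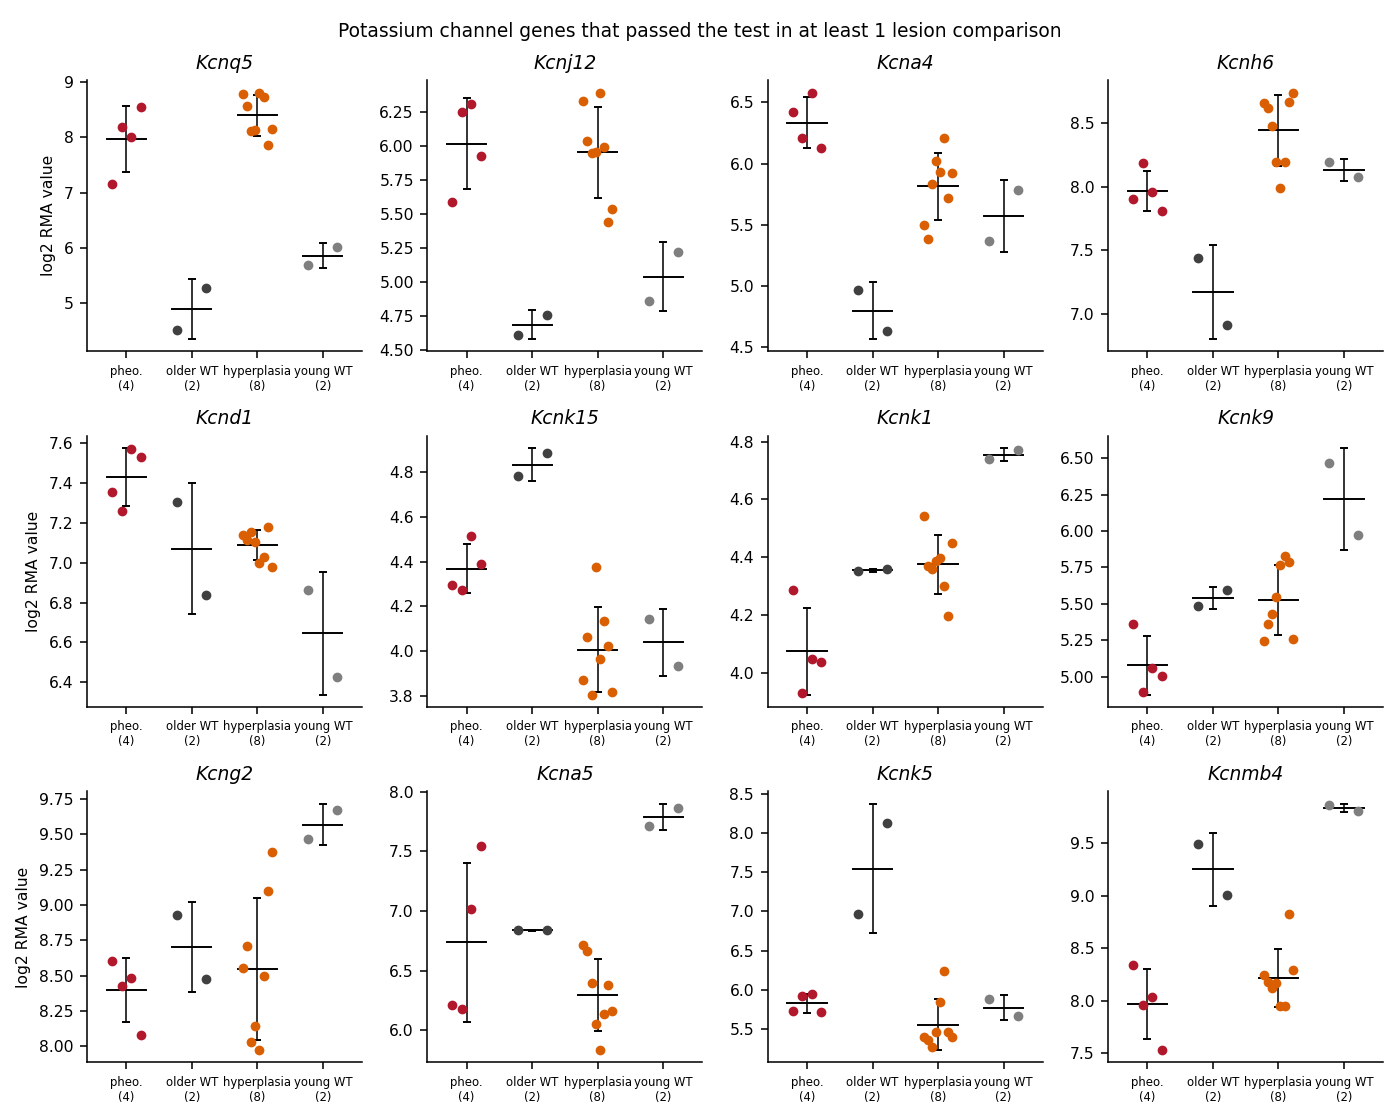
Log2 RMA values by array for the 12 potassium channel genes that passed the test in pheochromocytoma or hyperplasia, with pheochromocytoma, older wild type, hyperplasia and young wild type from left to right in each panel; lines are means and bars are SD, and each panel has its own axis. Kcnq5 and Kcnj12 lie above wild type in both lesions and Kcnmb4 below, while Kcna4 and Kcnk5 separate the tumours from the older pools and overlap between hyperplasia and the young pools, and Kcna5 does the reverse.

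Kcna4, which forms a rapidly inactivating A-type channel, was higher in the tumours. They had 6.42, 6.21, 6.58 and 6.13, against 4.96 and 4.63 in the older pools. The groups did not overlap and the difference was 1.54 ± 0.21 (limma adjusted p = 0.000408). The second older pool lay below its array's first quartile, so no fold is given. In hyperplasia it ran from 5.38 through 5.88 to 6.21, against 5.36 and 5.78 in the young pools, and the groups overlapped. The difference of 0.24 did not pass (limma adjusted p = 0.488). The older pools differed from the young ones by -0.77 ± 0.24 (limma adjusted p = 0.0282), and that call was lost without the second older or the second young pool. It was also lost with only the arrays compared and with the adrenal cortex mean as a covariate.

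Kcna5, a delayed rectifier of muscle and other cells, was lower in hyperplasia. Its 8 arrays ran from 5.83 through 6.27 to 6.71, against 7.72 and 7.87 in the young pools. They did not overlap, and the difference was -1.50 ± 0.29, or 2.82-fold lower (limma adjusted p = 0.00513). Without the second young pool the Kcna5 difference was -1.42 and did not pass (adjusted p = 0.0876). The tumours had 6.21, 6.18, 7.02 and 7.55, against 6.84 in both older pools, so the tumours lay on both sides of the pools.

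Kcnd1, an A-type channel, was higher in hyperplasia by 0.44 ± 0.13, close to the threshold (limma adjusted p = 0.0498). Its 8 arrays ran from 6.98 through 7.11 to 7.18, against 6.87 and 6.43 in the young pools. Without the second young pool the difference was 0.22 and did not pass. Of all genes, 16.8% passed in pheochromocytoma and 8.89% in hyperplasia. The other 10 of the 13 Kv1 to Kv4 genes did not pass in either lesion. Closest among them were Kcna1 and Kcnb2 in hyperplasia, at 0.69 (limma adjusted p = 0.0874) and 0.38 (limma adjusted p = 0.0919), and Kcnc2 in pheochromocytoma, at -1.06 (limma adjusted p = 0.0682).

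Kcnh6, a channel of the ether-a-go-go-related group, was higher in the tumours, which had 7.90, 8.18, 7.96 and 7.81, against 7.44 and 6.91 in the older pools. The difference was 0.79 ± 0.20, or 1.73-fold (limma adjusted p = 0.0176). Without the second older pool it was 0.53 and did not pass. In hyperplasia the difference was 0.31, which did not pass. Kcnh2, the related channel of the heart, differed by 0.16 in pheochromocytoma and -0.03 in hyperplasia.

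Kcng2, a silent subunit that forms no channel of its own and modifies others, was lower in hyperplasia. It ran from 7.97 through 8.52 to 9.37, against 9.46 and 9.67 in the young pools, so the highest hyperplasia array came close to the pools. The difference was -1.02 ± 0.29, or 2.03-fold lower (limma adjusted p = 0.0439). Its other 2 probe sets had the same sign, at -0.78 (limma adjusted p = 0.056) and -0.57 (limma adjusted p = 0.0033). With the adrenal cortex mean as a covariate the difference was -0.49 and did not pass. The Kcng2 call was also lost without either young pool, at -1.13 without the first and -0.92 without the second.

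The leak channels that passed in either lesion were all lower in the lesion. Kcnk5, an acid-sensitive leak channel first known from kidney, was 5.72, 5.92, 5.95 and 5.71 in the tumours, against 6.96 and 8.13 in the older pools. The difference was -1.72 ± 0.27, or 3.30-fold lower (limma adjusted p = 0.00118). The young pools, at 5.88 and 5.66, lay near the tumours, and hyperplasia ran from 5.27 through 5.43 to 6.24. The older pools were higher than the young ones by 1.78 ± 0.32 (limma adjusted p = 0.000881). Without the second older pool the difference between tumours and older pools was -1.14 and still passed.

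Kcnk9, an acid-sensitive leak channel of neurons and adrenal cells, ran from 5.24 through 5.49 to 5.83 in hyperplasia, against 6.47 and 5.97 in the young pools. The difference was -0.69 ± 0.17, or 1.62-fold lower (limma adjusted p = 0.0238), and without the first young pool it was -0.44 and did not pass. Kcnk1 differed by -0.38 ± 0.10 in hyperplasia (limma adjusted p = 0.0318), and Kcnk15 by -0.47 ± 0.14 in pheochromocytoma (limma adjusted p = 0.04). Both lay below the first quartile on every array, and the call was lost without either young pool for Kcnk1 and without either older pool for Kcnk15. The brightest leak channels, Kcnk2 and Kcnk3, differed by -0.13 and -0.62 in pheochromocytoma and by -0.25 and -0.27 in hyperplasia, and none of these passed.

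The counts by class are small. Of all genes, 9.66% were higher and 7.1% lower in pheochromocytoma, and 5.42% higher and 3.47% lower in hyperplasia. The auxiliary subunits had 1 of 13 genes called in each lesion, Kcnmb4 both times. Their median difference was -0.20 in pheochromocytoma and -0.21 in hyperplasia. The 11 leak channels had medians of -0.28 and -0.24, with 2 called lower in each, of which Kcnk15 in pheochromocytoma and Kcnk1 in hyperplasia lay below the first quartile on every array. The 13 Kv1 to Kv4 genes had medians of -0.03 and 0.24, with 1 called higher in pheochromocytoma and, in hyperplasia, 1 higher and 1 lower.

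The adrenal cortex markers averaged lower in each lesion than in its wild-type pools. With their mean as a covariate, 0 of the 75 genes passed in pheochromocytoma in limma, 8 had an unadjusted p under 0.05, and 0.155% of all genes passed. Kcnq5 was then 2.46 ± 0.48 (adjusted p = 0.0537), Kcna4 1.55 ± 0.32 (adjusted p = 0.069) and Kcnk5 -1.56 ± 0.42 (adjusted p = 0.164). Kcnmb4 was -0.75 ± 0.30 (adjusted p = 0.327). In hyperplasia Kcnq5, Kcnmb4 and Kcna5 still passed, at 2.12, -1.27 and -1.95. Cortex marker means did not overlap between either lesion and its pools, so the part of the cortex in the results cannot be told apart from the lesion by this fit. Neuronal markers also moved: of 12, 5 were higher in pheochromocytoma and 4 in hyperplasia, where 9.66% and 5.42% of all genes were. Their part in the results was not tested. For the counts of lower markers below, 7.1% of all genes were lower in pheochromocytoma and 3.47% in hyperplasia. Of the 12 chromaffin cell markers, 5 were higher in pheochromocytoma and 1 in hyperplasia. Among the lists for other cells, pheochromocytoma had 2 of 10 smooth muscle and pericyte markers higher and 1 lower, 2 of 7 Schwann and sustentacular markers higher and 1 lower, 2 of 8 fibroblast markers higher, and 1 endothelial and 1 adipocyte marker lower. Hyperplasia had 1 fibroblast marker higher and 1 lower, and 1 of 12 leukocyte markers higher.

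**Figure D5:**
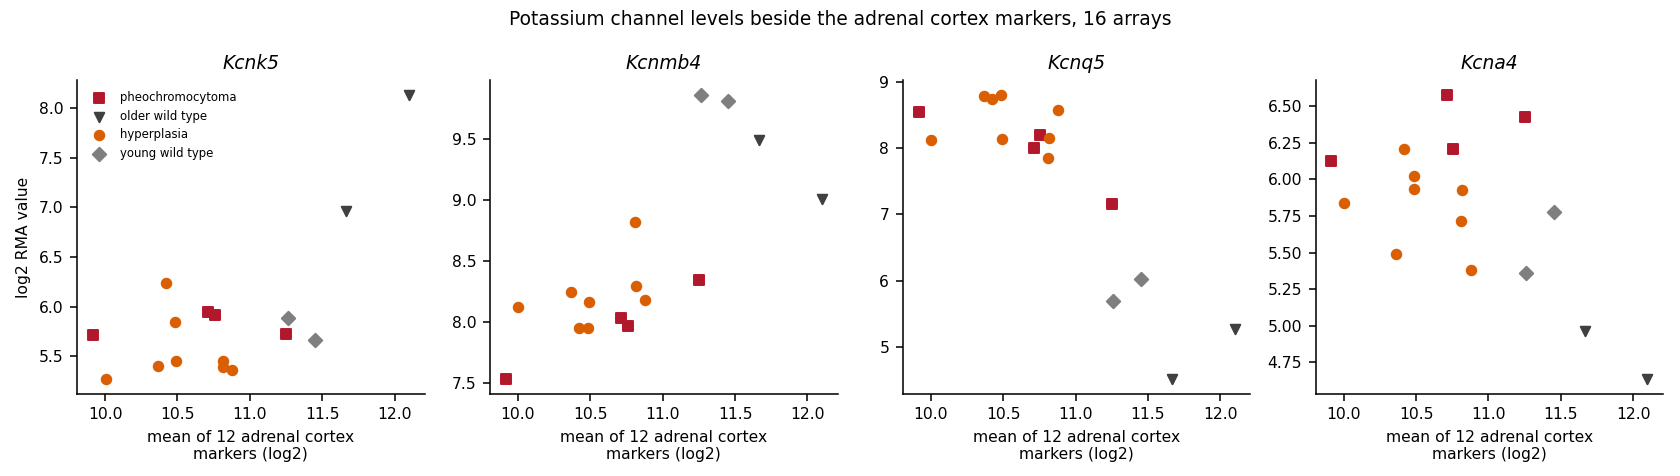
Log2 RMA value of Kcnk5, Kcnmb4, Kcnq5 and Kcna4 (vertical axes) against the mean of 12 adrenal cortex markers (horizontal axis) on the 16 arrays, with symbols by group. The older pools have the highest cortex means, 11.67 and 12.10, and the highest Kcnk5. The young pools have lower cortex means and higher Kcnmb4 than the older pools.

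No potassium channel gene passed the test of the difference between the 2 lesion effects in limma, and 9 had an unadjusted p under 0.05, against 10.8% of all genes. Over all genes 0.0141% passed. The smallest adjusted p-values were those of Kcna4, whose tumour effect was larger by 1.29 ± 0.28 (adjusted p = 0.16), of Kcnk5, at -1.50 ± 0.37 (adjusted p = 0.179), and of Kcna5, at 1.40 ± 0.42 (adjusted p = 0.25). A gene that passed in 1 lesion alone is therefore not shown to differ between them.

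Tumour and hyperplasia differ in age as well as in lesion, and the older arrays also differ in a measure of RNA quality. The 3′ minus 5′ difference of the hexokinase control probe sets was 2.16 to 3.30 in pheochromocytoma and 2.29 to 2.92 in older wild type, against 1.21 to 1.63 in hyperplasia and 1.07 to 1.18 in the young pools. The part of age and of RNA quality in the comparisons across age cannot be told apart. All hyperplasia arrays also lay above both young pools in this measure, and its part in the hyperplasia comparison was not tested. The older pools also had higher adrenal cortex means than the young ones, at 11.67 and 12.10, against 11.26 and 11.45. In older against young wild type, the part of cortex therefore cannot be told apart from that of age either. Among the named genes, Kcna4, Kcnc2 and Kcnk3 lost their calls there with that mean as a covariate. In pheochromocytoma against hyperplasia 27 of the 75 genes passed, which is 36%, against 35.8% of all genes. Of these, 16 were higher, where 15.7% of all genes were, and 11 lower, where 20.2% were. In older against young wild type 20 passed, or 26.7%, against 21.5% of all genes. Of these, 11 were higher, where 8.58% of all genes were, and 9 lower, where 12.9% were. Leaving out 1 wild-type pool gave counts of 10 to 13. These 2 comparisons share their arrays with those above, so values are given side by side.

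Kcnq3 had the largest of these differences. It was 5.12, 5.13, 5.12 and 5.00 in the tumours, against 6.74 through 6.98 to 7.44 in hyperplasia, a difference of -1.91 ± 0.13 (limma adjusted p = 1.55e-08). The older pools had 5.06 and 4.32, the second of them below its array's first quartile, against 6.87 and 6.68 in the young pools, a difference of -2.08 ± 0.21 (limma adjusted p = 7.15e-06). Its second probe set ran the other way, at 0.58 between tumour and hyperplasia and 1.22 between older and young pools, and both passed.

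Other inward rectifiers also differed between the older and the younger arrays. Kcnj14 was 6.73, 6.67, 6.61 and 6.39 in the tumours, against 5.59 through 5.68 to 5.76 in hyperplasia, a difference of 0.93 ± 0.12 (limma adjusted p = 1.5e-05). In the older pools it was 7.13 and 6.55, against 5.87 and 5.18 in the young pools, a difference of 1.31 ± 0.20. Kcnj5 was 7.63, 7.62, 7.64 and 7.26 in the tumours, against 8.07 through 8.25 to 8.36 in hyperplasia, a difference of -0.70 ± 0.09. In the older pools it was 7.12 and 7.39, against 8.26 and 8.08 in the young pools, a difference of -0.92 ± 0.15, and its second probe set had the same sign, at -1.34 and -1.86. No array of the older groups overlapped the younger ones for either gene.

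Further genes that were higher in the tumours than in hyperplasia were Kcnc2 by 0.84, the auxiliary subunit Kcne4 by 0.65, Kcnd2 and Kcnk3 each by 0.61, and Kcna4 by 0.52. Kcnj8 was lower by 0.68, Kcnj3 by 0.51, Kcns3 by 0.49 and Kcnh6 by 0.48. With the mean of a gene's probe sets, Kcnc2, Kcnd2 and Kcnj3 lost their calls in this comparison, and Kcnd2 lay below the first quartile on 11 of the 16 arrays. Leaving out tumour 1, 2 or 3 ended the call of Kcnc2, tumour 3 or 4 that of Kcnd2, tumour 1 that of Kcnk3 and tumour 4 that of Kcns3.

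In the older pools, Kcnk5 was higher than in the young ones by 1.78, and it passed without any 1 of the 4 pools, at 1.19 to 2.36. When 1 array was left out, Kcnj14 was 0.97 to 1.65, Kcnj5 -1.06 to -0.78 and Kcnk15 0.69 to 0.90. No alternative that tested these genes ended their calls, though Kcnk15 lay below the first quartile on every array. Kcnq3 was -2.45 to -1.72 and lost its call only with the mean of its probe sets. The calls that follow were less firm. Kcnc2 was higher by 1.30, with 0.64 to 1.96 when 1 array was left out and 0.14 with the mean of its probe sets. Kcnd3 was higher by 1.09, with 0.42 to 1.77 when 1 array was left out and 0.25 with the mean of its probe sets, and it passed in 15 of 28 alternatives. Kcne4 was higher by 0.93, with 0.51 to 1.35 when 1 array was left out, and lost its call without the second young pool. Kcnk3 was higher by 0.95 and lost its call without any 1 of the 4 pools. Kcnc2 and Kcnk3 also lost their calls with the adrenal cortex mean as a covariate. Of the 4 pools, leaving out any but the first older one ended the call of Kcnc2, and leaving out any but the first young one ended that of Kcnd3. Kcnh6 was lower in the older pools by 0.96, Kcnj11 by 0.88 and Kcnn3 by 0.77. Kcnh6 and Kcnn3 lost their calls without the second older or the first young pool, and Kcnj11 without either older or the first young pool.

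Several probe sets of 1 gene often moved in opposite directions in the comparisons across age. In pheochromocytoma against hyperplasia, 10 potassium channel genes had at least 2 probe sets that passed, and in 4 of them, Kcnab2, Kcnip2, Kcnma1 and Kcnq3, these had opposite signs. That is 40%, against 39.5% over all genes (572 of 1447). In older against young wild type it was 2 of 5 members, Kcnc2 and Kcnq3, against 27.3% over all genes (188 of 688). In the lesion comparisons it was 0 of 1 member in hyperplasia, against 1 of 160 genes. In pheochromocytoma no member had 2 probe sets that passed, and 10 of 318 such genes, or 3.14%, had opposite signs. The direction of a gene across age therefore depends on the probe set for part of the members.

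Partners of the channels outside the symbol rule gave 6 of 17 genes called in pheochromocytoma, where 16.8% of all genes were, and 4 of 17 in hyperplasia, where 8.89% were. Dpp6, an auxiliary subunit of A-type channels, was higher by 0.67 in pheochromocytoma and 0.74 in hyperplasia. Amigo1, which associates with delayed rectifiers, was higher by 0.70 and 0.92. Dlg2, a scaffold protein that clusters channels, was lower by 0.85 and 0.47. In pheochromocytoma Cntnap2, which gathers channels beside the node of Ranvier, was lower by 1.94, and Dlg4 was higher by 0.78. Lgi1 was lower in hyperplasia by 1.06. Of 16 potassium pumps and transporters, 1 passed in each lesion: Slc12a2, a sodium, potassium and chloride cotransporter, was higher in pheochromocytoma by 0.56, and Fxyd7, a regulator of the sodium pump, was lower in hyperplasia by 0.46.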

How the data were processed

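Total RNA of rat adrenal tissue was measured on 16 arrays. The deposited values are log2 values per probe set and array. RMA, which corrects background, normalizes quantiles and summarises probes, is named in the submitters' processing notes, and its version is not given. The number of arrays limits the precision.

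The 57 control probe sets were left out. Symbols came from the platform annotation: 20826 probe sets had 1, 436 several and 9780 none, and the Entrez identifiers of all 75 members were found in the RefSeq gene table. Groups were compared with limma 3.58.1 (R 4.3.3; lmFit and eBayes, with 4 group levels, no covariate, 12 residual degrees of freedom, median prior 3.98), two-sided, with Benjamini-Hochberg adjustment over all 31042 probe sets. The fit was tested on simulated data with independent noise. These held no shared differences in cortex content or RNA quality, so that test does not bear on them. The members, gene lists and tests were chosen with earlier results of these data known. Nothing says that the 2 pools of a group came from separate litters.

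Named members are all that passed in either lesion, up to 6 per direction in the other comparisons, the 8 brightest, the 2 closest misses per lesion and a fixed list. From other lists up to 4 passing genes per comparison are named. Genes named for their level below the first quartile, or for probe sets of opposite sign, were chosen after their values were seen. Alternatives were labelled sex or Xist as a covariate, only the arrays compared, a robust prior with a trend over intensity, testing without the dimmest 30% of probe sets, quantile normalization, median centring, array weights, a replicate block, the adrenal cortex mean as a covariate, the mean of a gene's probe sets, leaving out each array, and, added after the data were seen, leaving out the 4 hyperplasia arrays whose Xist goes against the label.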

Additional observations from a re-analysis of the deposited data

Results flagged for a closer look

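In 76 groups of 4 to 10 arrays of the named genes, 5 values stood apart from the others of their group, and chance alone flags about 5% of groups. Kcnmb4 was 8.82 on the seventh hyperplasia array, against 7.95 to 8.29 on the other arrays. Kcnd2 was 5.22 on the eighth hyperplasia array, against 4.11 to 4.55 on the others. The other 3 values belong to the fourth pheochromocytoma, the only tumour labelled male and the one with the lowest adrenal cortex mean, 9.92. There Kcnc2 was 5.65, against 6.56 to 6.74 in the other tumours, Kcnj5 was 7.26, against 7.62 to 7.64, and Kcnq3 was 5.00, against 5.12 to 5.13. The part of sex and of cortex in these 3 values was not tested.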

How the results depend on the processing

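Under all 28 alternatives run, Kcnq5 and Kcnmb4 passed in hyperplasia. For Kcnq5, 1 alternative averaged its probe sets, at 0.79 in hyperplasia, and the others used the brightest probe set alone. None used its other 2 probe sets alone, neither of which passed, so these counts do not test the choice of probe set. In pheochromocytoma Kcnq5, Kcna4, Kcnj12, Kcnk5 and Kcnmb4 passed in 27 of 28 and failed with the adrenal cortex covariate. Less firm were Kcnd1, called in 9 of 28, Kcng2 in 14 of 28, and Kcnk15 in 15 of 27. In hyperplasia the count of 8 fell to 3 with the adrenal cortex covariate and to 3 without the 4 arrays whose Xist goes against the label, where Kcnq5, Kcnmb4 and Kcna5 passed. Leaving out 1 array gave 3 to 8, with 4 without young pool 1, 3 without young pool 2 and 5 without the sixth hyperplasia array. In pheochromocytoma the count of 7 became 0 with the cortex covariate, and leaving out 1 array gave 5 to 10. Pheochromocytoma against hyperplasia gave 21 to 28 when 1 array was left out (27 in all). Older against young wild type (20 in all) gave 10 with only the arrays compared, 13 with array weights, and 10 to 21 when 1 array was left out, with 13 and 10 without older pools 1 and 2 and 11 and 10 without young pools 1 and 2. The difference of effects gave 0 to 2, with 2 without older pool 1. With the mean of all probe sets, Kcnma1 reversed between pheochromocytoma and hyperplasia, to -0.45 from 0.25, because its dimmer probe sets were lower in pheochromocytoma. Except where stated, the cause was not tested. Apart from the cortex covariate in pheochromocytoma, the share of all genes that passed under each alternative is not given here. A change in a count is therefore not shown to be particular to the potassium channel genes.

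Deviations of same-numbered lesion and wild-type arrays correlated at -0.08, 0.05, -0.06 and 0.05. The deviations of 2 pools from their mean mirror each other, so these values cannot decide whether replicate numbers pair the arrays. With the replicate block the counts were 3 in hyperplasia, 6 in pheochromocytoma, 18 between pheochromocytoma and hyperplasia, 16 between older and young wild type and 0 for the difference of effects. Each wild-type group has 2 pools, and leaving one out assumes the remaining pool varies like the other groups. The difference of effects needs all 4 groups, so it has no value with only the arrays compared.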
